A study of Mus musculus with 15 samples.

Results

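Of the 55487 mouse genes in the count tables, 9 encode the red cell surface proteins described here: the Rh proteins Rhag and Rhd, the blood group proteins Kel, Ermap and Icam4, the water channel Aqp1, the carriers Slc26a1 and Slc43a1, and the claudin Cldn13. They were picked by symbol, and each symbol matched 1 gene. The libraries came from erythroid progenitors of fetal liver at embryonic day E12.5, from mice of strain 129S6/SvEvTac, wildtype or mutant for the ribosomal protein gene Rpl5. The 15 libraries form 5 groups of 3. Mouse group 1 has wildtype and mutant libraries, with the molecule given as polyA RNA. Mouse group 2 has wildtype, mutant and "low-yield" mutant libraries, with the molecule given as total RNA, and a file of that group writes the genotype of both kinds of mutant as Rpl5plusSkax23Jus. The labels do not say what "low-yield" means, how the progenitors were purified, or whether each library is 1 embryo, so p-values measure the spread between these libraries, which may be partly technical. No level was compared between the mouse groups, because the kind of RNA differs.

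These proteins sit in the plasma membrane of erythroid cells, and several carry blood group antigens in humans. The Rh-associated glycoprotein made by Rhag is needed to bring the Rh proteins, such as that of Rhd, to the surface, where both join a complex with band 3 (Slc4a1), ankyrin and protein 4.2. The Kell protein (Kel) is an endopeptidase held by a disulfide bond to the membrane protein Xk. Ermap carries the Scianna antigens, Icam4 the Landsteiner-Wiener antigens and Aqp1 the Colton antigens. Genes of this kind are switched on as erythroid cells mature, under GATA1 and KLF1.

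Windows around the transcription starts of these genes, from RefSeq on GRCm38.p6, were searched for the GATA element, spelled AGATAA or AGATAG or TGATAA or TGATAG, on both strands. A window runs from 250 bases before to 50 bases after a start. There were windows for 8 of the 9 genes (9 windows, with 2 for Slc26a1 and none for Cldn13). The element was in 6 of these 9 windows, and in 29.8% of all 32851 windows. The CACC element recognised by KLF-type factors, spelled CCNCNCCC and searched on both strands, was in 4 of the 9 windows and in 49.5% of all windows. The bases before the start are printed for 4 genes. Slc26a1 and Aqp1 had the largest falls in group 1. Kel was called lower in every comparison with wildtype, as were Slc26a1, Aqp1 and Cldn13. Rhag passed the test in none of these comparisons when all libraries were used without a replicate block. Capitals mark the GATA element or its reverse complement. The Slc26a1 stretch is chr5:108675366-108675615 on the reverse strand, that of Aqp1 chr6:55336049-55336298 on the forward strand, that of Kel chr6:41704326-41704575 on the reverse strand, and that of Rhag chr17:40810899-40811148 on the forward strand.
Slc26a1: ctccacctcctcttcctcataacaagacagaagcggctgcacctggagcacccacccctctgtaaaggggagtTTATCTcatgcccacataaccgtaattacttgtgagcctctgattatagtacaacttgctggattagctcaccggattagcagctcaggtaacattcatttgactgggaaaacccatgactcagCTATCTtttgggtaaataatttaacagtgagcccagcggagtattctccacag
Aqp1: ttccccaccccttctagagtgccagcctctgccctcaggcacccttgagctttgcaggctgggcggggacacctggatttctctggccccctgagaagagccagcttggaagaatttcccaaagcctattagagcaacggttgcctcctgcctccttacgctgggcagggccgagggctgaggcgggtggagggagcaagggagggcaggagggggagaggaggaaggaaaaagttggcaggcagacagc
Kel: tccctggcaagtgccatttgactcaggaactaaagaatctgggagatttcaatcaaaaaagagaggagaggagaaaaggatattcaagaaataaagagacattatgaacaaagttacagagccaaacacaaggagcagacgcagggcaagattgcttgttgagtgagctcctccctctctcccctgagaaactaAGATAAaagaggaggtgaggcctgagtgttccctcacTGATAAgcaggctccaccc
Rhag: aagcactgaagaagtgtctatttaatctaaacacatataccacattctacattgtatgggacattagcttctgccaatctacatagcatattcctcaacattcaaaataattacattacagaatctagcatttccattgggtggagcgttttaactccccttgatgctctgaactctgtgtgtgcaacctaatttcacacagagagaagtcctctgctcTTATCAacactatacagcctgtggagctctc
Slc26a1 and Kel each have 2 GATA elements in the printed stretch. Rhag has 1, at 31 bases before the start. In the Aqp1 stretch none of the 4 spellings occurs. Ermap, Rhd and Icam4 have 1 each, and the Slc43a1 window has none. The other Slc26a1 window, which is not printed, has neither a GATA nor a CACC element. A match here is a description of the letters, not a site shown to be bound.

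Group 1 libraries had totals of 48510828 to 58513669 counts, and group 2 libraries 24954324 to 44827821. The 9 genes were well covered, with between 757 counts (Cldn13, low-yield replicate 2) and 55024 counts (Ermap, group 1 wildtype replicate 3) per library. Rpl5 itself was lower in every mutant library than in every wildtype library of its mouse group, with a log2 fold change of -0.32 (SE 0.07) in group 1, -0.46 (SE 0.10) in the group 2 mutant and -0.44 (SE 0.10) in the low-yield mutant. The erythroid marker list, which includes Slc4a1, Epor and globin genes, had no gene at 0 in any group, and summed to between 2193 and 6999 CPM (counts relative to the TMM-scaled library size, the level used throughout). Macrophage markers summed to at most 12.6 CPM, with Timd4 at 0 in all 5 groups.

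Across the 9 genes the mutants were lower than wildtype, by amounts that ran from little or no change to a fall of over 3-fold. In group 1, 8 of the 9 were called lower in the mutant by edgeR's quasi-likelihood test (adjusted p under 0.05 over all genes tested), against 6.78% of all tested genes called lower. With the replicate number as a block, which treats same-numbered libraries as pairs, all 9 were called (Rhag entered, adjusted p 0.03665). Of all tested genes, 9.92% were then called lower and 10.5% higher. The labels do not state such pairs. In group 2, 4 of the 9 were called lower in the mutant (2.95% of all tested genes) and 7 of the 9 in the low-yield mutant (5.86%). These counts rest on single libraries: the first was 2 without wildtype replicate 3, mutant replicate 1 or mutant replicate 3, and the second was 4 without wildtype replicate 3 or low-yield replicate 1. Over both mouse groups, with mouse group as a block and the low-yield libraries left out, 8 of 9 were called lower (9.80%). None was called higher in any of these comparisons, against 5.79%, 3.32%, 6.68% and 9.80% of all tested genes in this order. The median log2 fold change of the 9 genes was -0.70, -0.73, -0.94 and -0.72 in this order, and that of all tested genes was between -0.01 and 0.01. The comparisons share libraries: both kinds of group 2 mutant were set against the same 3 wildtype libraries, and the pooled comparison reuses those of both mouse groups. In bulk RNA, fewer cells of a kind and less RNA per cell cannot be told apart.

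**Figure D1:**
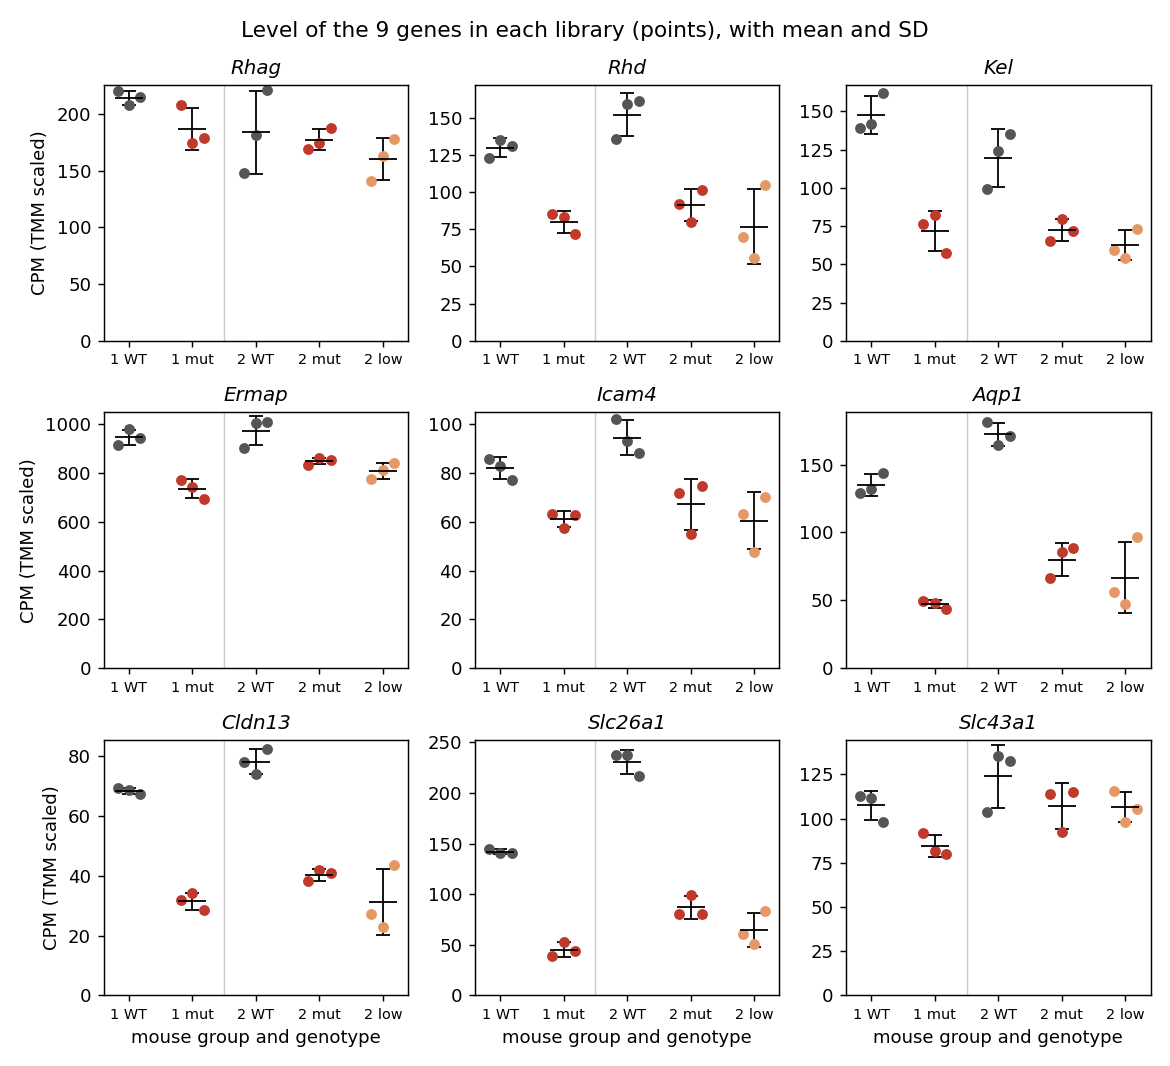
Level of each gene in CPM (vertical axes, from 0) in the 5 groups (1 and 2 are the mouse groups; WT wildtype, mut mutant, low the low-yield mutant); points are libraries, bars the mean and SD of 3. Relative to the wildtype level, Aqp1, Cldn13 and Slc26a1 show the widest gap between wildtype and mutant means. The libraries of Rhag overlap in both mouse groups and those of Slc43a1 in group 2.

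Markers of other cells moved with genotype. In group 2, granulocyte markers summed to between 17.7 and 37.0 CPM in wildtype, 139 and 230.1 CPM in the mutant and 177 and 381 CPM in the low-yield mutant, with 6 of 10 called higher in the mutant and 10 of 10 in the low-yield mutant. In group 1 the sums were 104, 783 and 751 CPM in wildtype and 259, 1460.1 and 1015 CPM in the mutant, so that the mutant library was higher in all 3 numbered pairs. With the replicate block 4 of the 10 were called higher there (Mpo, Elane, S100a8 and Prtn3); without it edgeR, DESeq2 and voom each called 0, and 0 had an unadjusted p under 0.05. Of 8 early progenitor markers, Kit was called higher in group 1, and Kit and Gata2 were among those called higher in both kinds of group 2 mutant; with the replicate block 4 of the 8 were called higher in group 1. Their summed level was 488 to 632 CPM in wildtype and 548 to 671 CPM in the mutant of group 1, and in group 2 it was 434 to 585 CPM in wildtype, 583 to 681 CPM in the mutant and 599.6 to 726 CPM in the low-yield mutant. Hepatocyte markers, of which Alb and Serpina1a were called lower in the group 1 mutant (2 of 10), summed to 35.005 to 64.6 CPM in its wildtype and 7.61 to 23.4 CPM in the mutant. With the replicate block the 2 called lower there were Ahsg and Serpina1a. DESeq2 called Alb, Trf and Serpina1a, and voom called Alb alone. None of the 10 was called in group 2. In the low-yield mutant, 4 of 6 tested endothelial markers and 4 of 8 tested megakaryocyte markers were called higher, while the megakaryocyte marker Vwf was called lower. Endothelial markers summed to 46.8 to 70.7 CPM in group 2 wildtype, 65.9 to 66.7 CPM in the mutant and 68.2 to 73.3 CPM in the low-yield mutant, with Emcn at 0 in the first 2 of these groups. Most of that sum was Egfl7; the other 9 summed to 1.33 to 1.96 CPM, 4.50 to 6.68 CPM and 8.03 to 11.2 CPM in this order. The megakaryocyte sums were 40.1 to 45.4 CPM, 41.9 to 48.0 CPM and 60.2 to 61.2 CPM in the same order, with Ppbp at 0 in wildtype; within them Itga2b stood at 8.62 to 9.82, 14.7 to 16.9 and 21.6 to 34.0 CPM, and Vwf at 22.1 to 26.3, 13.8 to 19.3 and 10.9 to 20.99 CPM. Erythroid markers moved with the 9 genes: 8 of 10 were called lower in the group 1 mutant, 3 in the group 2 mutant and 5 in the low-yield mutant. The part of these shifts in the results for the 9 genes was not tested.

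Rhag (chromosome 17, 40811126 to 40840754, forward strand; GENCODE M21 on GRCm38, as for all genes below) passed the test in no comparison with wildtype when all libraries were used without a replicate block. In group 1, Rhag stood at 219.8, 208 and 214 CPM in wildtype (214 ± 6.07, SD, n = 3) and at 208, 174 and 178 in the mutant (187 ± 18.6). The ranges met, since mutant replicate 1 reached wildtype replicate 2. In group 2, Rhag stood at 148, 182 and 221 CPM in wildtype (184 ± 36.8), at 169, 175 and 188 in the mutant (177 ± 9.40) and at 141, 163 and 178 in the low-yield mutant (160.4 ± 18.7). All 3 groups overlapped, and wildtype replicate 1 was below all 3 mutant libraries. Fitted log2 fold changes were -0.20 in group 1 (SE 0.07, adjusted p 0.1052), -0.05 in the group 2 mutant (SE 0.13, adjusted p 0.8697), with -0.20 in low-yield libraries (SE 0.13, adjusted p 0.3566). In group 1 the fit with the replicate number as a block gave the same -0.20 with an adjusted p of 0.03665. All 9 genes were then called lower there, though the labels do not state that same-numbered libraries are pairs. Without group 1 mutant replicate 1 the adjusted p was 0.01708, and over all alternatives it ran up to 0.3688. The 95% interval in the group 2 mutant ran from -0.32 to 0.22, which leaves room for a modest change either way.

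Rhd (chromosome 4, 134864536 to 134896172, forward strand), whose product carries the Rh antigens, fell in the group 1 mutant and the low-yield mutant. In group 1, Rhd stood at 123, 135 and 131 CPM in wildtype (129.9 ± 6.49) and at 85.3, 83.3 and 71.6 in the mutant (80.1 ± 7.40). All mutant libraries were below all wildtype ones, and the log2 fold change was -0.70 (SE 0.08, adjusted p 0.0002903). In group 2, Rhd stood at 136, 159 and 162 CPM in wildtype (152 ± 14.3), at 92.3, 80.1 and 101 in the mutant (91.3 ± 10.7) and at 69.5, 55.9 and 105 in the low-yield mutant (76.7 ± 25.2). Again no mutant library reached a wildtype one, and low-yield replicate 3 was the highest of the 6 mutant libraries. The log2 fold change in the group 2 mutant was -0.74 (SE 0.20) and missed the threshold, with an adjusted p of 0.07134. It was below the threshold with DESeq2 (0.0008482), with voom (0.02651) and with only the 6 libraries compared (0.001462), and over all alternatives it ran up to 0.2283. The low-yield mutant was lower by edgeR, at -0.99 (SE 0.20, adjusted p 0.01443). That call was lost without wildtype replicate 2 or 3 or low-yield replicate 1 (adjusted p 0.05327, 0.06769 and 0.06894).

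The ratio of Rhd to Rhag within a library sets the 2 Rh genes against each other, and the lengths cancel when it is compared between groups. The log2 ratio of CPM in group 1 was -0.84, -0.62 and -0.71 in wildtype and -1.29, -1.06 and -1.32 in the mutant. The group 2 values were -0.13, -0.19 and -0.45 in wildtype, -0.88, -1.12 and -0.89 in the mutant and -1.02, -1.54 and -0.77 in the low-yield mutant. Every mutant library of either mouse group had less Rhd per Rhag than every wildtype library of its mouse group. The mean log2 ratio differed from wildtype by -0.50 in group 1, -0.71 in the group 2 mutant and -0.85 in the low-yield mutant. In an exact two-sided permutation test of the mutant and wildtype libraries within mouse groups, low-yield libraries left out, the p was 0.005, the smallest that the 400 arrangements can give (0.005 adjusted over the 2 ratios tested). The arrangements do not keep same-numbered libraries together as pairs. This ratio was chosen after the values had been seen, so the test is no independent support.

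Kel (chromosome 6, 41686330 to 41704339, reverse strand), the Kell endopeptidase, fell in all 3 comparisons with wildtype. In group 1, Kel stood at 139, 141.5 and 162 CPM in wildtype (148 ± 12.47) and at 76.3, 82.3 and 57.2 in the mutant (71.9 ± 13.1), with a log2 fold change of -1.04 (SE 0.14, adjusted p 0.003457). In group 2, Kel stood at 99.0, 124 and 136 CPM in wildtype (119.5 ± 18.7), at 65.4, 79.6 and 71.5 in the mutant (72.2 ± 7.13) and at 59.3, 54.4 and 73.4 in the low-yield mutant (62.4 ± 9.86). No mutant library overlapped wildtype in either mouse group. Against wildtype the log2 fold change was -0.73 for the group 2 mutant (SE 0.13, adjusted p 0.004575), while low-yield libraries gave -0.94 (SE 0.13, adjusted p 0.0004756). Kel and Slc26a1 were called in both group 2 comparisons with wildtype under every alternative run, including each left-out library.

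Xk, the partner of Kell, was called lower in group 1 and in neither group 2 comparison with wildtype. In group 1, Xk stood at 107, 111 and 122 CPM in wildtype and at 92.1, 98.0 and 92.4 in the mutant, a called fall with a log2 fold change of -0.27 (SE 0.07, adjusted p 0.02692). In group 2 its log2 fold change was -0.15 in the mutant (SE 0.14, adjusted p 0.5934), with -0.28 in low-yield libraries (SE 0.14, adjusted p 0.209), and neither passed the test. The log2 ratio of Kel to Xk was 0.38, 0.36 and 0.40 in group 1 wildtype libraries and -0.27, -0.25 and -0.69 in the mutant ones. The group 2 values were 0.19, 0.14 and -0.03 in wildtype, -0.64, -0.46 and -0.37 in the mutant and -0.52, -0.78 and -0.43 in the low-yield mutant. The ratio was lower in every mutant library than in every wildtype library of the same mouse group. The same exact permutation test gave a p of 0.005, again the smallest possible, and like the Rh ratio this one was chosen after the values had been seen.

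**Figure D2:**
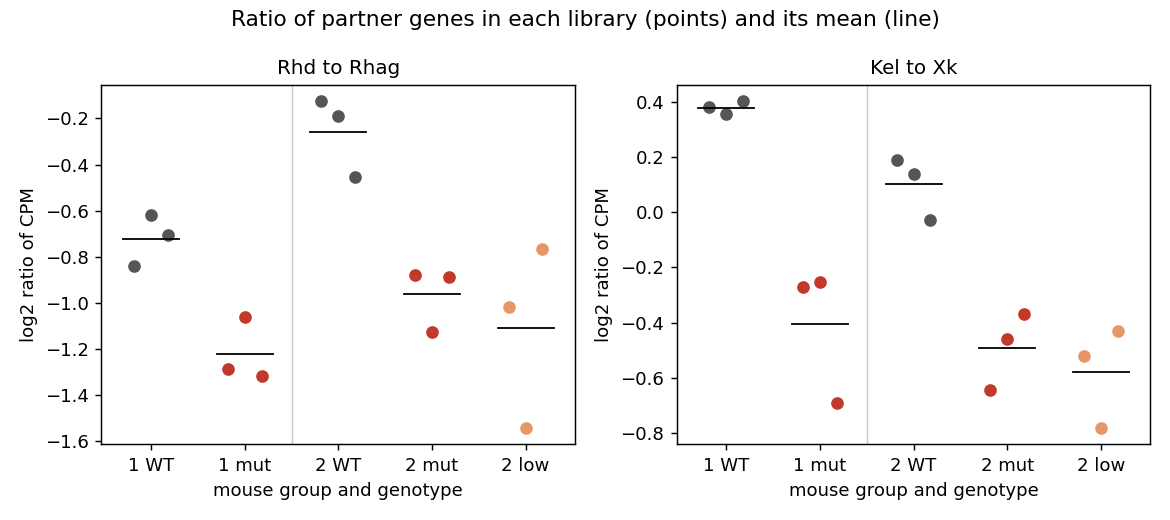
Log2 ratio of the CPM of Rhd to Rhag (left) and of Kel to Xk (right) in each library (points) of the 5 groups, with the mean of 3 (line); the vertical axes do not start at 0. In both panels the mutant points lie below the wildtype points of their mouse group.

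Ermap (chromosome 4, 119175457 to 119190011, reverse strand) encodes a membrane protein of the immunoglobulin superfamily, and it was the most abundant of the 9 genes per length. In group 1, Ermap stood at 915, 979.6 and 943 CPM in wildtype (946 ± 32.4) and at 772, 741 and 694 in the mutant (736 ± 39.2), with a log2 fold change of -0.36 (SE 0.06, adjusted p 0.003391). In group 2, Ermap stood at 904, 1004 and 1009.6 CPM in wildtype (972 ± 59.4), at 834, 861 and 852 in the mutant (849 ± 13.9) and at 776, 810.1 and 839 in the low-yield mutant (809 ± 31.4). The mutant libraries lay below the wildtype ones throughout, by a small step. The group 2 mutant did not pass the test, with a log2 fold change of -0.20 (SE 0.07, adjusted p 0.136), and passed in 1 alternative, voom with quality weights (-0.22, adjusted p 0.01978; range up to 0.3483 over all alternatives). The low-yield mutant did, at -0.27 (SE 0.07, adjusted p 0.02792), and lost the call when libraries were scaled by total counts (adjusted p 0.05538). That call was also lost without wildtype replicate 2 or 3, mutant replicate 3, or low-yield replicate 1 or 2, with adjusted p between 0.05096 and 0.1658; the lowest over all alternatives was 0.001153.

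Icam4 (chromosome 9, 21029373 to 21030595, forward strand) encodes an adhesion protein that binds integrins, among them those of macrophages in erythroblastic islands. In group 1, Icam4 stood at 85.9, 83.0 and 77.3 CPM in wildtype (82.1 ± 4.38) and at 63.1, 57.5 and 62.7 in the mutant (61.1 ± 3.13), with a log2 fold change of -0.42 (SE 0.07, adjusted p 0.002909). In group 2, Icam4 stood at 102, 93.1 and 88.1 CPM in wildtype (94.5 ± 7.15), at 72.0, 55.1 and 74.5 in the mutant (67.2 ± 10.6) and at 63.3, 47.7 and 70.4 in the low-yield mutant (60.5 ± 11.6). The genotypes did not overlap in either mouse group. The group 2 mutant narrowly missed the threshold at -0.49 (SE 0.14, adjusted p 0.05492), passed with DESeq2 (adjusted p 0.0145, with a range from 0.00584 to 0.1469 over all alternatives), and the low-yield mutant passed at -0.64 (SE 0.14, adjusted p 0.008565). An antisense gene, Gm47079, covers 100% of the exonic length of Icam4, and since the use of strand is not given in the sources used here, reads of the pair cannot be told apart with certainty. Gm47079 was assigned between 1.74 and 4.94 CPM in any library.

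The island adhesion list holds 9 integrins and partners through which such contacts form. Itgal, an integrin subunit of leukocytes, was called higher in both kinds of group 2 mutant, and Itgb2 and Itgb3 in the low-yield mutant. Over both mouse groups 3 of the 9 were called higher, against 9.80% of all tested genes: Itgal (log2 fold change 1.19, SE 0.29, adjusted p 0.01191), Maea (0.17, SE 0.06, adjusted p 0.04) and Vcam1 (1.14, SE 0.40, adjusted p 0.04866). Vcam1, which is also on the macrophage marker list, stood at no more than 2.69 CPM in any library. Neither DESeq2 nor voom called Vcam1 over both mouse groups. Both called Itgal and Maea higher, and voom also called Itga4 lower. In group 1, edgeR, DESeq2 and voom without the replicate block each called 0 of the 9. With the block 3 were called higher there, against 10.5% of all tested genes. With the replicate block 6 of the 9 were called higher and 1 lower over both mouse groups, against 12.6% and 11.8% of all tested genes. That block also pairs the group 2 libraries by number, where same-numbered libraries did not all deviate together. The granulocyte markers given above rose in the same group 2 libraries as Itgal, and their part in its rise was not tested.

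Aqp1 (chromosome 6, 55336432 to 55348555, forward strand), the red cell water channel, had one of the largest falls. In group 1, Aqp1 stood at 129, 132 and 144 CPM in wildtype (135 ± 7.87) and at 49.3, 48.2 and 43.6 in the mutant (47.0 ± 3.00), a mean 2.87-fold lower. The 3 mutant libraries were close together, and the log2 fold change was -1.52 (SE 0.07, adjusted p 7.343e-07). In group 2, Aqp1 stood at 182, 165 and 171 CPM in wildtype (172 ± 8.61), at 66.1, 85.2 and 88.8 in the mutant (80.1 ± 12.2) and at 56.1, 47.3 and 96.4 in the low-yield mutant (66.6 ± 26.2). Low-yield replicate 3 stood above its 2 companions and above every mutant library, and still below every wildtype library. Against wildtype the log2 fold change was -1.10 for the group 2 mutant (SE 0.25, adjusted p 0.04374), while low-yield libraries gave -1.37 (SE 0.25, adjusted p 0.01194). The first of these calls was fragile: it was lost without any one of the 6 libraries compared or without low-yield replicate 1 (adjusted p between 0.06017 and 0.1594), and without a low-count filter (0.1041). The low-yield call was lost without wildtype replicate 3 (adjusted p 0.05222) or low-yield replicate 1 (0.05554).

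Slc26a1 (chromosome 5, 108669878 to 108675569, reverse strand), a sulfate and oxalate exchanger, had the lowest log2 fold change of the 9 genes in all 3 comparisons with wildtype. In group 1, Slc26a1 stood at 145, 141 and 141 CPM in wildtype (142 ± 2.18) and at 39.0, 53.1 and 43.5 in the mutant (45.2 ± 7.20), a mean 3.15-fold lower, with a log2 fold change of -1.65 (SE 0.10, adjusted p 7.338e-06). In group 2, Slc26a1 stood at 237, 238 and 217 CPM in wildtype (231 ± 11.7), at 81.0, 99.6 and 80.2 in the mutant (86.9 ± 11.004) and at 60.7, 50.8 and 83.7 in the low-yield mutant (65.0 ± 16.9). The distance between genotypes was several times the spread within any group. Against wildtype the log2 fold change was -1.41 for the group 2 mutant (SE 0.15, adjusted p 0.0004969), while low-yield libraries gave -1.82 (SE 0.16, adjusted p 5.61e-05).

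The gene on the other strand moved the opposite way. Idua, which encodes a lysosomal enzyme of glycosaminoglycan breakdown, runs through the Slc26a1 locus and shares 141 exonic bases with it, 3.5% of the exonic length of Slc26a1. In group 1, Idua stood at 2.51, 2.58 and 2.84 CPM in wildtype and at 7.45, 7.66 and 8.12 in the mutant. In group 2, Idua stood at 1.64, 2.40 and 2.27 CPM in wildtype, at 8.67, 8.18 and 6.74 in the mutant and at 8.51, 7.73 and 6.25 in the low-yield mutant. Idua was thus higher in every mutant library than in any wildtype library of its mouse group, at a level far below that of Slc26a1. Its log2 fold change was 1.55 (SE 0.18, adjusted p 0.0003736) in group 1, 1.87 (SE 0.23, adjusted p 0.0003794) in the group 2 mutant and 1.81 (SE 0.23, adjusted p 0.0002332) in the low-yield mutant. Idua was chosen for its overlap with Slc26a1. Reads in the shared bases could have been given to either gene, and how many were was not tested.

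Slc43a1 (chromosome 2, 84838850 to 84863594, forward strand), a carrier of branched-chain and aromatic amino acids, was called lower in group 1 and in neither group 2 comparison. In group 1, Slc43a1 stood at 113, 111 and 98.2 CPM in wildtype (107 ± 8.05) and at 91.6, 81.4 and 80.0 in the mutant (84.4 ± 6.32), with a log2 fold change of -0.35 (SE 0.08, adjusted p 0.01325). This call was lost without wildtype replicate 1 or 2 or mutant replicate 3 (adjusted p 0.07305, 0.07742 and 0.09312; the lowest over all alternatives was 0.001011). In group 2, Slc43a1 stood at 104, 135 and 132 CPM in wildtype (124 ± 17.6), at 114, 92.2 and 115 in the mutant (107 ± 12.9) and at 115, 98.3 and 106 in the low-yield mutant (106 ± 8.54). The ranges overlapped, through the low wildtype replicate 1. Neither group 2 comparison passed the test: the log2 fold change was -0.21 in the mutant (95% interval -0.45 to 0.03, adjusted p 0.3259), with -0.22 in low-yield libraries (-0.46 to 0.02, adjusted p 0.2365). Without wildtype replicate 1 the low-yield mutant was called lower (-0.33, adjusted p 0.04472; range up to 0.5441 over all alternatives).

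Cldn13 (chromosome 5, 134914249 to 134915526, reverse strand), a claudin made by mouse erythroid cells, fell in all 3 comparisons with wildtype. In group 1, Cldn13 stood at 69.4, 68.7 and 67.4 CPM in wildtype (68.5 ± 1.03) and at 31.9, 34.2 and 28.6 in the mutant (31.6 ± 2.81), with a log2 fold change of -1.12 (SE 0.08, adjusted p 1.12e-05). In group 2, Cldn13 stood at 78.0, 74.1 and 82.5 CPM in wildtype (78.2 ± 4.18), at 38.2, 41.9 and 40.9 in the mutant (40.3 ± 1.95) and at 27.1, 23.0 and 43.6 in the low-yield mutant (31.3 ± 10.9). The genotypes did not overlap in either mouse group, and low-yield replicate 3 stood above its companions. Against wildtype the log2 fold change was -0.96 for the group 2 mutant (SE 0.18, adjusted p 0.01117), while low-yield libraries gave -1.31 (SE 0.18, adjusted p 0.001071). The group 2 mutant call was lost without wildtype replicate 3, mutant replicate 1 or mutant replicate 3 (adjusted p between 0.05219 and 0.06306).

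**Figure D3:**
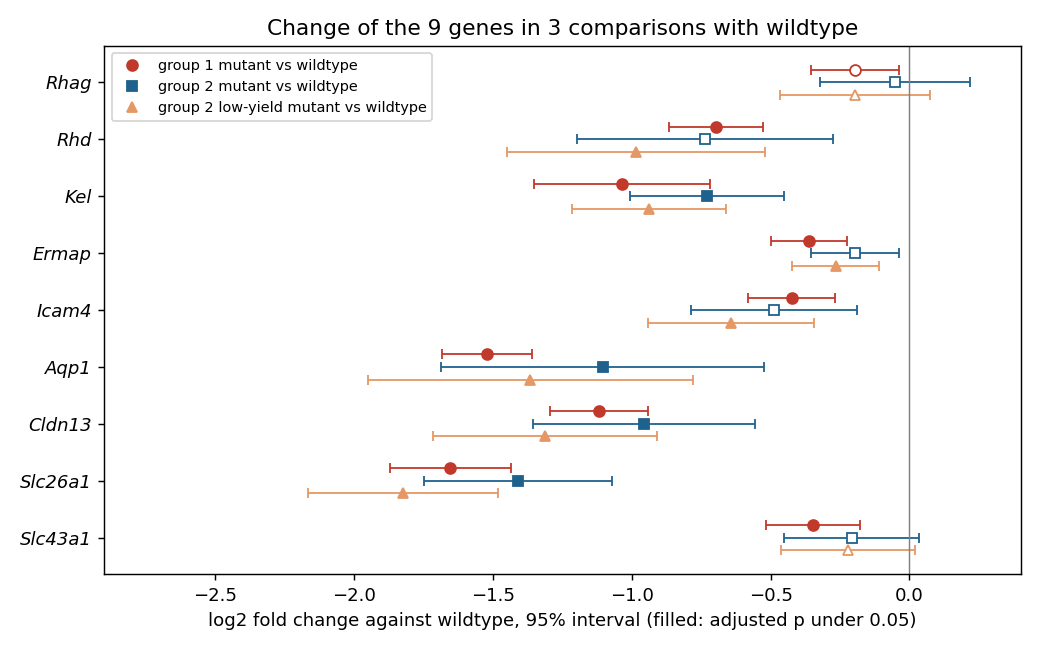
Log2 fold change against wildtype of the same mouse group (horizontal axis) for each gene, with its 95% interval, in the group 1 mutant (circles), the group 2 mutant (squares) and the group 2 low-yield mutant (triangles); filled symbols passed the test. Slc26a1, Aqp1 and Cldn13 lie furthest from 0 in each comparison, and Rhag is open in all 3 comparisons (without the replicate block, which changes its call in group 1).

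Whether the mutant effect differed between the mouse groups was tested with the interaction of genotype and mouse group. None of the 9 genes was called, and 0.0188% of all tested genes were (3 of 15954; 13 with DESeq2, 4 with voom and 342 at an unadjusted p under 0.05). Aqp1 had the largest estimate of the 9, a smaller fall in group 2 by 0.43 on the log2 scale (SE 0.14), with an unadjusted p of 0.006224 and an adjusted p of 1. For Kel the estimate was 0.32 (95% interval -0.09 to 0.73) and for Rhd -0.02 (-0.32 to 0.28). These intervals do not show that the effect was the same in both mouse groups.

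None of the 9 genes was called between the low-yield and the other mutant, as was none of all 15024 tested genes by edgeR (0%; 6 with DESeq2, 4 with voom and 480 at an unadjusted p under 0.05). Each of the 9 fitted values was below 0, against 48.9% of all tested genes, with Slc43a1 above 0 when libraries were scaled by upper quartiles or total counts. The median was -0.21, against 0.0039 for all tested genes. Slc26a1 had the largest, -0.41 (95% interval -0.75 to -0.07, unadjusted p 0.02109, adjusted p 0.9997), and Slc43a1 the smallest, -0.01. Low-yield replicate 3 was the highest of its group in 8 of the 9 genes and replicate 2 the lowest in 7. Without replicate 3, Cldn13 (-0.69, adjusted p 0.02502) and Slc26a1 (-0.64, adjusted p 0.04843) were called lower in the low-yield mutant. Under every other alternative run their adjusted p was above 0.05. The matching shares of all tested genes were not counted, so neither result is shown to be particular to the 9 genes.

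Per length of exon, Ermap was first in all 5 groups, and the order of the others shifted between groups. In CPM per kb, group 1 wildtype had Ermap first (179 ± 6.12), then Rhag (91.5 ± 2.60), Rhd (81.5 ± 4.07), Icam4 (73.9 ± 3.94), Cldn13 (64.2 ± 0.96), Kel (53.2 ± 4.50), Aqp1 (51.4 ± 2.99), Slc26a1 (35.1 ± 0.54) and Slc43a1 (18.8 ± 1.41). The ranges of Rhd and Icam4 overlapped, as did those of Kel and Aqp1, and the other neighbours were apart. Against wildtype of the same mouse group, 5 of the 9 kept their place in the group 1 mutant, 5 in the group 2 mutant and 4 in the low-yield mutant. Icam4 stood above Rhd in group 1 mutant libraries without separating from it (55.1 ± 2.82 against 50.2 ± 4.64 CPM per kb), and Slc43a1 (14.8 ± 1.11) stood above Slc26a1 (11.2 ± 1.78), with no overlap. In group 2 wildtype, Rhd, Icam4, Rhag and Cldn13, between 73.3 and 95.5 CPM per kb, overlapped each with the next. Slc43a1 was last there at 21.7 ± 3.08, against 57.0 ± 2.90 for Slc26a1. In the group 2 mutants these 2 carriers overlapped, at 18.7 ± 2.26 and 21.5 ± 2.72 in the mutant and 18.6 ± 1.49 and 16.1 ± 4.16 in the low-yield mutant. Rhag held the place after Ermap in both kinds of group 2 mutant (75.8 ± 4.02 and 68.6 ± 7.98 CPM per kb) and the 4th place in wildtype.

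The 9 profiles ran together across libraries to different degrees. With log2 CPM centred on the mean of each mouse group, Pearson's r between 2 of the 9 genes over the 15 libraries ran from 0.37 to 0.98 (36 pairs, median 0.87). Aqp1 and Cldn13 were the closest pair. Rhag was nearest to Ermap (r = 0.68), and Slc43a1 likewise (r = 0.78). These values hold the genotype difference itself, and centring on each group of 3 instead lowered the median to 0.46 (from -0.26 to 0.93), with Aqp1 and Cldn13 still the closest. They are a description, since the points share their depth and scaling. Among 7737 other genes with at least 10 CPM in both mouse groups, the 5 most like the mean of the 9 profiles were Tspan33 (r = 0.99), Tnfrsf14 (0.99), Fbxo10 (0.99), Klhl12 (0.99) and Josd2 (0.99). Tspan33 is a tetraspanin known from erythroid cells, and its log2 fold change over both mouse groups was -0.91 (SE 0.07). Fbxo10, an F-box protein, was at -1.07 (SE 0.06). These genes were picked for likeness to a profile that holds the genotype difference, so a fall was built into the choice.

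Related genes were read from the same fits to set the 9 in their surroundings, with the counts over both mouse groups read against 9.80% called lower and 9.80% called higher among all tested genes. Of 12 genes of the Rh and band 3 complex, 8 were called lower and none higher, with a median log2 fold change of -0.41. They include Epb42, which encodes protein 4.2 (-0.98, SE 0.09, adjusted p 2.037e-06), the spectrin gene Sptb (-0.53, SE 0.07, adjusted p 1.971e-05), Add2, an adducin (-0.48, SE 0.05, adjusted p 1.099e-06), and Epb41, which encodes protein 4.1 (-0.35, SE 0.06, adjusted p 0.0002735). Band 3 itself, Slc4a1, fell by 2.02 on the log2 scale (SE 0.26, adjusted p 0.0005227), and Cd47, a surface protein of this complex, by 0.23 (SE 0.07, adjusted p 0.01872). In group 1, 8 of the 12 were called lower, in the group 2 mutant 4 and in the low-yield mutant 5.

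Other carriers of blood group antigens were mixed. Of 23 tested among 25, 8 were called lower and 2 higher, with a median of -0.09. Ackr1, the Duffy chemokine receptor, fell by 2.52 on the log2 scale (SE 0.30, adjusted p 7.582e-06) from a low level, with 1.83 to 4.25 CPM in wildtype and 0.07 to 0.77 CPM in mutant libraries of all kinds. Smim1, which carries the Vel antigen, fell by 0.61 (SE 0.08, adjusted p 2.528e-05). The 2 called higher were the transporter Abcc4, which rose by 0.44 (SE 0.07, adjusted p 0.0002864), and the water and glycerol channel Aqp3.

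Among 24 other channels and carriers of red cells, 8 were called lower and 2 higher over both mouse groups (median -0.11). The glycine carrier Slc6a9 fell by 0.65 (SE 0.08, adjusted p 1.797e-05), the neutral amino acid carrier Slc1a5 by 0.57 (SE 0.08, adjusted p 2.667e-05), the glucose carrier Slc2a1 by 0.55 (SE 0.09, adjusted p 0.0003764) and the aromatic amino acid carrier Slc16a10 by 0.37 (SE 0.06, adjusted p 0.0001912). The relatives of the 9 genes showed no common direction. Of 15 tested among 23 paralogues, 3 were called lower and 4 higher (median 0.03). Slc43a3 fell by 0.37 (SE 0.06, adjusted p 0.0004395) and Aqp11 by 0.49 (SE 0.10, adjusted p 0.002124). Slc26a2, another sulfate carrier, rose by 0.36 (SE 0.07, adjusted p 0.001764), against the fall of Slc26a1, and Icam2 rose by 0.90 (SE 0.21, adjusted p 0.004121).

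Of 10 erythroid regulators, 5 were called lower and none higher (median -0.11). Klf1, the factor that binds CACC elements, fell by 0.50 (SE 0.05, adjusted p 2.478e-06), the erythropoietin receptor gene Epor by 0.37 (SE 0.05, adjusted p 5.617e-05), Nfe2 by 0.24 (SE 0.05, adjusted p 0.003384) and Tal1 by 0.23 (SE 0.05, adjusted p 0.00561). Gata1 was not called, with a log2 fold change of 0.10 (95% interval -0.01 to 0.22, adjusted p 0.208).

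**Figure D4:**
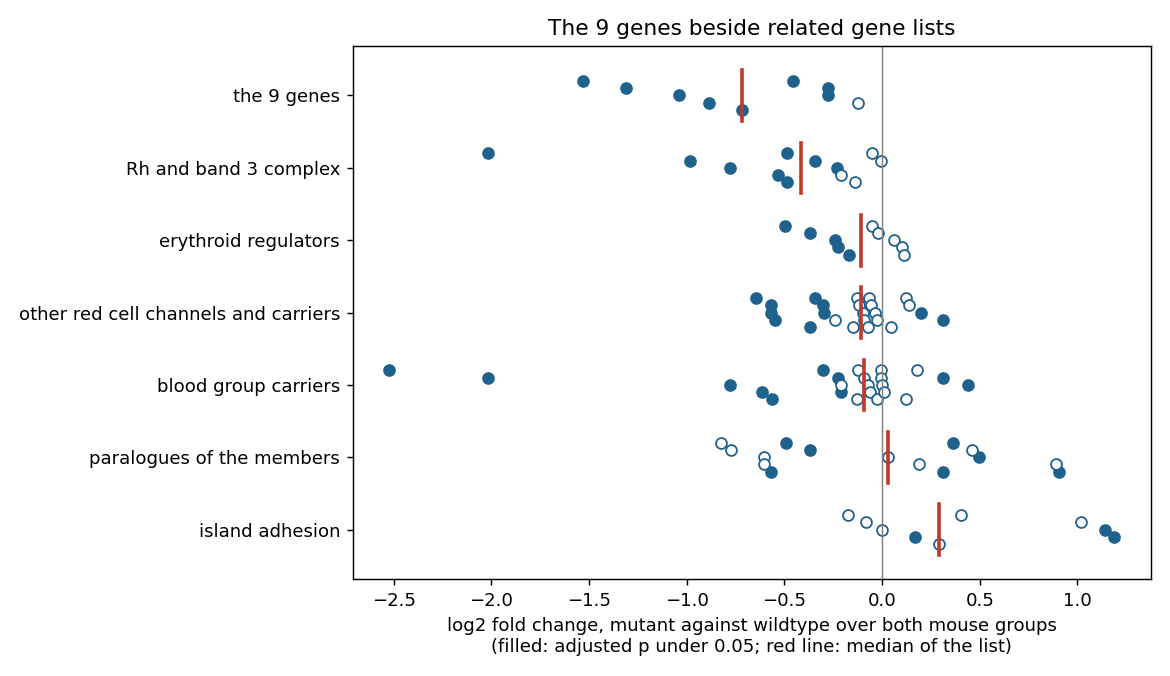
Log2 fold change of mutant against wildtype over both mouse groups (horizontal axis) for the 9 genes and for 6 lists of related genes; points are genes, filled where they passed the test, and the red line is the median of each list (some genes are in 2 lists). The medians of the lists drawn run from -0.72 for the 9 genes to 0.29 for island adhesion; of the marker lists, which are not drawn, the erythroid one had a median of -0.91 (8 of 10 called lower), the hepatocyte one -1.01 (0 of 10 called by edgeR, 1 by DESeq2, 2 by voom and 2 with the replicate block; 3 at an unadjusted p under 0.05) and the early progenitor one 0.60 (3 of 8 called higher).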

How the data were processed

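RNA was extracted with RNeasy Micro columns and read as 151 bp pairs on an Illumina NovaSeq, per the labels' protocols. The submitters' processing notes name cutadapt 2.3, FastQC 0.11.8, STAR 2.7.8a, RSEM 1.3.3, MultiQC 1.7 and the build GRCm38; the gene annotation and strand setting are not given in the sources used here. The authors deposited expected counts per gene, not normalised, which were already whole numbers; rounding changed none. The 9 reporter rows, with 5 counts in all, were left out of library sizes and tests. Libraries were grouped by title. edgeR 4.0.16 in R 4.3.3 was used with TMM scaling, filterByExpr and a robust quasi-likelihood F test, two-sided, with Benjamini-Hochberg adjustment over all genes tested and a threshold of 0.05; all 9 genes passed the filter. The 3 groups of mouse group 2 were fitted together. SE is the log2 fold change over the square root of F. DESeq2 1.42.0 and voom of limma 3.58.1 were alternatives, beside other scalings, filters, a replicate block and left-out libraries. Same-numbered libraries of group 1 deviated from their group means with r = 0.441, 0.186 and 0.146 across genes, each over 0.1. The unlike-numbered pair of wildtype replicate 3 and mutant replicate 2 had 0.23. The other unlike-numbered pairs lay between -0.349 and 0.0318. The titles number the replicates without stating pairs, so pairing is not settled. The block over both mouse groups pairs libraries by number in each mouse group. Levels per kb use the union of exons in GENCODE M21, possibly not the authors' release; 55141 of the 55487 genes are in it. The 9 genes, the lists and the rule for named genes (all 9, Rpl5, at most 4 of a list by smallest p over both mouse groups, any needed for a count of 5 or fewer, and the 5 most alike genes) were chosen with earlier results of these data known. Aqp3, Cd47, Idua and Gata1 were named after their values had been seen. Some list genes are counted but not reported here by name.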

Additional observations from a re-analysis of the deposited data

How the results depend on the processing

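With one library left out at a time, the number of the 9 genes called lower ran from 7 to 9 in group 1, from 2 to 6 in the group 2 mutant, from 4 to 8 in the low-yield mutant and from 7 to 9 over both mouse groups, was 0 for the interaction, and ran from 0 to 2 between the 2 kinds of mutant. The group 2 mutant count was 2 without wildtype replicate 3, mutant replicate 1 or mutant replicate 3, and the low-yield count was 4 without wildtype replicate 3 or low-yield replicate 1; fewer libraries were fitted. Other scalings, filters and tools gave 8 in group 1, 3 to 6 in the group 2 mutant, 6 or 7 in the low-yield mutant and 8 over both groups. The older quasi-likelihood mode of edgeR, added after seeing the data, gave 8, 4, 7 and 8.

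In group 2 same-numbered libraries did not all deviate together (same-number r between -0.0681 and 0.241 across genes). With the replicate block there, 5 of 9 were called in the mutant: Rhd (adjusted p 0.01316) and Icam4 (0.00584) entered and Aqp1 (0.0501) left. The block changed no other call of the 9 genes except that of Rhag in group 1. The related and marker lists were counted under the block, DESeq2 and voom after seeing the data.

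With one library left out, the log2 fold change of Rhag in the group 2 mutant ran from -0.178 to 0.104 (without wildtype replicate 3). Between the kinds of mutant, that of Slc43a1 was 0.00496 with upper-quartile factors and 0.00539 with total counts, and ran from -0.107 to 0.0463 with one library left out. Interaction estimates ran likewise from -0.0032 to 0.283 for Rhag, from -0.134 to 0.0509 for Rhd (0.0872 with voom) and from -0.154 to 0.0653 for Icam4 (0.0532 with voom). None of these was called either way, and the cause was not tested. With genes of at least 2 CPM admitted, 3 of the 5 most alike genes remained. With the longest transcript as length, 38 of 45 places in the order per length were kept, and with total counts 45.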
